A study of Mus musculus with 50 samples.

Results

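Imprinted genes are transcribed from the copy inherited from 1 parent and are marked for this by DNA methylation set in the germ line. A group of them is co-regulated during growth before birth and largely silenced in the liver and other organs afterwards, and is known as the imprinted gene network. The 10 genes of it described here, called members below, are Dlk1, Meg3, Rian, Mirg, H19, Igf2, Peg3, Plagl1, Cdkn1c and Mest. They were taken by name from the 45792 rows of the count table. A gene symbol was given for 8 of them, and H19 and Rian were found by gene identifier. All 10 had a count in at least 1 library, and between 5 and 8 of them passed the filter on low counts in a given comparison.

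RNA-seq was performed on liver tissue and liver tumours of C3H/He mice, an inbred strain prone to liver tumours, harvested at 48 weeks. The mice were fed a control diet or the ALIOS diet, which is high in trans-fat and fructose and models fatty liver disease. The non-tumour livers came from 12 control diet and 11 ALIOS samples. The tumours were 12 spontaneous tumours on the ALIOS diet, 1 spontaneous tumour on the control diet (T7), 8 tumours of ALIOS fed mice given the liver carcinogen DEN and 5 tumours of control diet mice given DEN. A further library labelled as an ALIOS tumour, T1, was left out of every group because it held kidney transcripts. There was no non-tumour liver of a mouse given DEN, so in the DEN tumours the carcinogen and the tumour cannot be told apart. The labels do not say whether tumours shared a mouse, or whether a tumour and a liver did. The paper counts 1 mouse for each spontaneous tumour. The main tests were unpaired.

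Values are counts divided by the TMM scaled library total and multiplied by 1e+06 (CPM). The libraries held between 23798251 and 45751398 counted reads, and reads are not independent molecules. The summed level of 12 hepatocyte markers was between 89079 and 257654 CPM in the 49 libraries used and 4405 CPM in T1, where 8 kidney markers reached 29513 CPM against at most 24.8 CPM elsewhere. The ALIOS DEN tumour T24 stood apart with 1412 CPM over 12 markers of stellate cells and fibroblasts, against 98.0 to 649 CPM in the other tumours. These are bulk samples, in which more cells of a type and more RNA per cell cannot be told apart.

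Dlk1, Meg3, Rian and Mirg lie within the Dlk1-Dio3 imprinted domain of chromosome 12, where the protein coding genes are transcribed from the paternal copy and the long non-coding RNAs from the maternal copy. In the mouse assembly GRCm38 (also called mm10) Dlk1, which encodes a membrane protein of the Notch ligand family found on fetal liver progenitors, spans chr12:109452823-109463336. The non-coding genes follow on the same strand, Meg3 at chr12:109541001-109571726, Rian (the host of small nucleolar RNAs) at chr12:109603940-109661716 and Mirg (a microRNA host) at chr12:109729764-109749460. H19, a non-coding RNA of the maternal copy, lies at chr7:142575529-142578143, and Igf2, the paternally transcribed gene of a fetal growth factor, at chr7:142650766-142666816, in a domain they share. Cdkn1c, at chr7:143458339-143461050 in the neighbouring maternal domain, encodes the cell cycle inhibitor p57. The remaining genes are paternally transcribed and lie in domains of their own. Peg3, a zinc finger protein gene, spans chr7:6703892-6730431, Plagl1, a zinc finger transcription factor gene placed at the centre of the network, spans chr10:13060504-13131694, and Mest, a hydrolase family gene, spans chr6:30723547-30748465.

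H19 changed most of the 10 genes, and its exon holds a microRNA hairpin. The mature microRNAs, which mRNA libraries do not measure, are printed because reads on this exon are also reads on their precursor. Both are given 5′ to 3′ from RefSeq (GRCm38.p6), with the seed (bases 2 to 8) in capitals, at chr7:142577112-142577133 and chr7:142577078-142577099 on the minus strand.
mmu-miR-675-5p: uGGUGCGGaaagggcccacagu
mmu-miR-675-3p: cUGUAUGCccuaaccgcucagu
The 2 seeds differ. The promoters of Meg3 and Peg3 are printed for 2 reasons. Meg3 held most reads of the Dlk1-Dio3 domain, and Peg3 was higher in every spontaneous ALIOS tumour than in every ALIOS liver. They are given in RefSeq's GRCm38.p6 sequence from 250 bases before to 50 bases after the start and in the direction of transcription, with each CG, the letters that methylation marks, in capitals.
Meg3, chr12:109540746-109541045, plus strand: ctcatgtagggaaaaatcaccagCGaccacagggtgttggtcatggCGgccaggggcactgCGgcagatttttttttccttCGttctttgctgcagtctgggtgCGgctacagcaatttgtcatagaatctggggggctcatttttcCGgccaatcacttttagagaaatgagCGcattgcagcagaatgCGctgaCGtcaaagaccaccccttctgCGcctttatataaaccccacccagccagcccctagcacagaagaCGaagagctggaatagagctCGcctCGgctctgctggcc
Peg3, chr7:6730370-6730669, minus strand: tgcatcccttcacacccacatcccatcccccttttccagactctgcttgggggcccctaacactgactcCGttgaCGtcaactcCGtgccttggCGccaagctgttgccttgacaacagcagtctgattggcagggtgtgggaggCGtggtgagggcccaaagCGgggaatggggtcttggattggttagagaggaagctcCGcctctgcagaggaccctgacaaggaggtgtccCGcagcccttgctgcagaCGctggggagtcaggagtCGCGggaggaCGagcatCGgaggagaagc
Each holds 13 CG, and 37.9% of the 32851 RefSeq mouse promoters of this length hold as many or more (CG reads the same on both strands). RefSeq gives Meg3 another start site, whose promoter at chr12:109545148-109545447 holds 1 CG (as many or more in 94.6% of promoters) and is not printed. Methylation was not measured in these samples. RefSeq promoters were at hand for 8 of the 10 genes, H19 and Cdkn1c not among them.

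Per kilobase of exon, the order of the genes differed between livers and tumours. Over the 23 livers the mean level in CPM per kilobase was highest for Cdkn1c (0.529) and Mest (0.521), followed by H19 (0.302), Peg3 (0.273), Plagl1 (0.102), Igf2 (0.0583), Meg3 (0.0123), Rian (0.00661), Dlk1 (0.00155) and Mirg (0.00138). Over the 26 tumours H19 led with a mean of 28.4 CPM per kilobase, ahead of Peg3 (2.77), Mest (1.18), Cdkn1c (0.723), Igf2 (0.202), Plagl1 (0.195), Meg3 (0.121), Rian (0.0687), Mirg (0.0145) and Dlk1 (0.00688). The H19 mean rested in part on T13 at 701 CPM and T7 at 257 CPM, and its median over the tumours was 9.87 CPM per kilobase, still above the medians of the other 9 genes. Neighbours in these orders, such as Cdkn1c and Mest in livers or Igf2 and Plagl1 in tumours, differed by less than the spread between libraries.

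**Figure D1:**
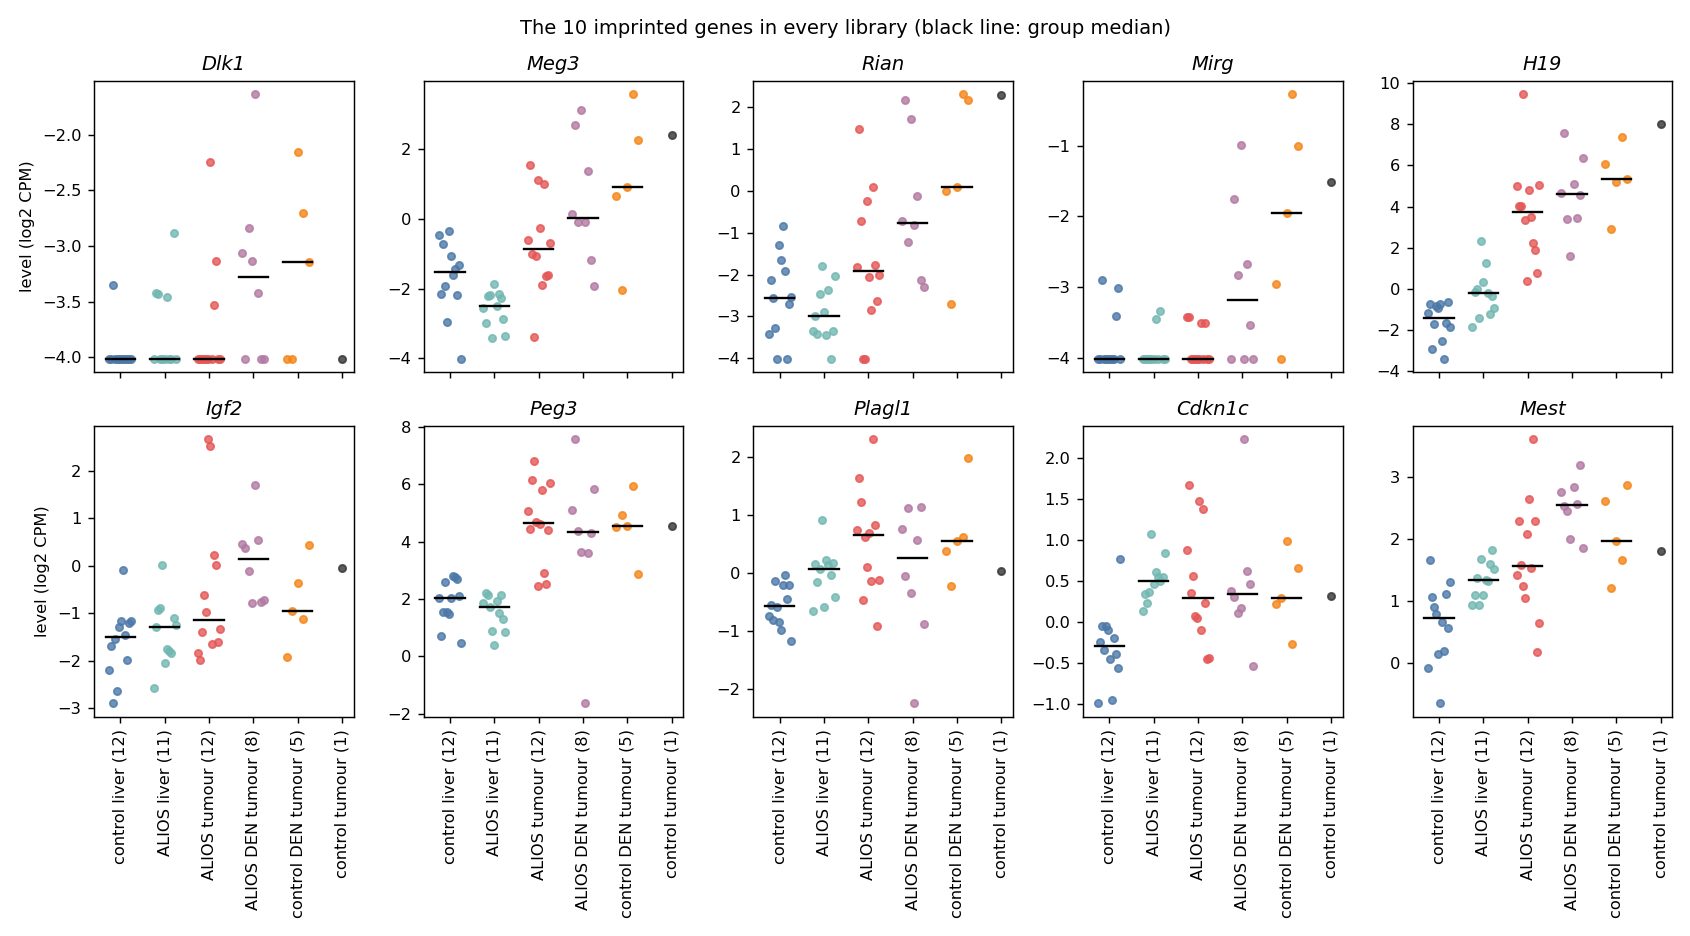
Level of each of the 10 genes (log2 CPM with a prior count of 2, so that a library without a read lies near -4) in every library, by group, with the number of libraries in brackets. Each point is a library and the black line is the group median. The H19 and Peg3 tumour points lie above most liver points, while the Dlk1 and Mirg points lie at the floor in most libraries.

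The first question was whether the genes differed with the ALIOS diet in non-tumour liver tissue. These livers may have carried tumours elsewhere. In the paper tumours were more frequent on the ALIOS diet, so diet and tumour bearing cannot be told apart here. Among the 5 genes that passed the filter, H19, Cdkn1c and Plagl1 were higher in the ALIOS livers and none was lower. Of all 13723 genes tested, 6.73% were called higher and 4.51% lower (edgeR's quasi-likelihood test, Benjamini-Hochberg adjusted p under 0.05, used throughout). The median log2 fold change was 0.63 over the 5 genes and -0.02 over all genes.

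H19 had between 0.0339 and 0.584 CPM in the control diet livers, with a median of 0.316, and between 0.214 and 4.94 CPM in the ALIOS livers, with a median of 0.812. The groups overlapped, with 7 of 11 ALIOS livers above every control liver. The log2 fold change was 1.86 ± 0.48 (SE, n = 11 and 12, adjusted p = 0.0164), and without N17, the liver at 4.94 CPM, it was 1.31 (adjusted p = 0.0465). Liver N17 also had the highest level of Igf2, Plagl1 and Cdkn1c among the ALIOS livers, and the highest summed level among all 23 livers of stellate cell and fibroblast markers (364 CPM) and cholangiocyte markers (216 CPM), whose part in these results was not tested. Stellate cell and fibroblast markers rose in 5 of 12 cases and macrophage markers in 6 of 8 in the ALIOS livers, and none of these fell. Of the markers tested there, 2 of 5 cholangiocyte, 2 of 5 T and B cell and 2 of 4 cell division markers also rose, and none fell. The 1 adipocyte marker tested rose and the 1 kidney marker fell. None of 12 hepatocyte and 8 endothelial markers was called.

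Cdkn1c was between 0.440 and 1.64 CPM in the control diet livers, with a median of 0.755, and between 1.03 and 2.05 CPM in the ALIOS livers, with a median of 1.36. All 11 ALIOS livers lay above the control median and 2 lay above every control liver, which gave a log2 fold change of 0.82 ± 0.18 (adjusted p = 0.0070). Plagl1 rose by 0.62 ± 0.19 on the log2 scale (adjusted p = 0.0349), from a median of 0.610 CPM to 0.989 CPM, and 7 of 11 ALIOS livers lay above every control liver. This call was lost in 9 of 23 fits that left out 1 library, N17 among them (log2 fold change of 0.48, adjusted p = 0.0798). Mest had a log2 fold change of 0.63 ± 0.21 (adjusted p = 0.0543) and Peg3 of -0.43 ± 0.26 (adjusted p = 0.281), and neither passed the threshold, although Mest was called when N13, N16, N9 or N10 was left out (adjusted p = 0.0148 without N10). With all 48 libraries of the tested groups in a single fit, none of the 3 calls held (adjusted p = 0.286 for H19, 0.0710 for Cdkn1c and 0.315 for Plagl1).

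The genes of chromosome 12 were near the limit of detection in livers. Meg3 had 0 to 25 reads per control diet liver and 1 to 6 reads per ALIOS liver, Rian had 0 to 13 and 0 to 7, Mirg 0 to 2 and 0 to 1, and Dlk1 0 to 1 and 0 to 2. Igf2 had 2 to 23 and 3 to 29 reads. These 5 genes were removed by the filter, and fitted without it only Meg3 was called, with a log2 fold change of -1.48 ± 0.41 (adjusted p = 0.0342). This call was lost with all groups in a single fit (adjusted p = 0.210). The mean of Meg3 was 0.320 ± 0.228 CPM (SD, n = 12) in control diet livers and 0.115 ± 0.0583 CPM (SD, n = 11) in ALIOS livers.

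**Figure D2:**
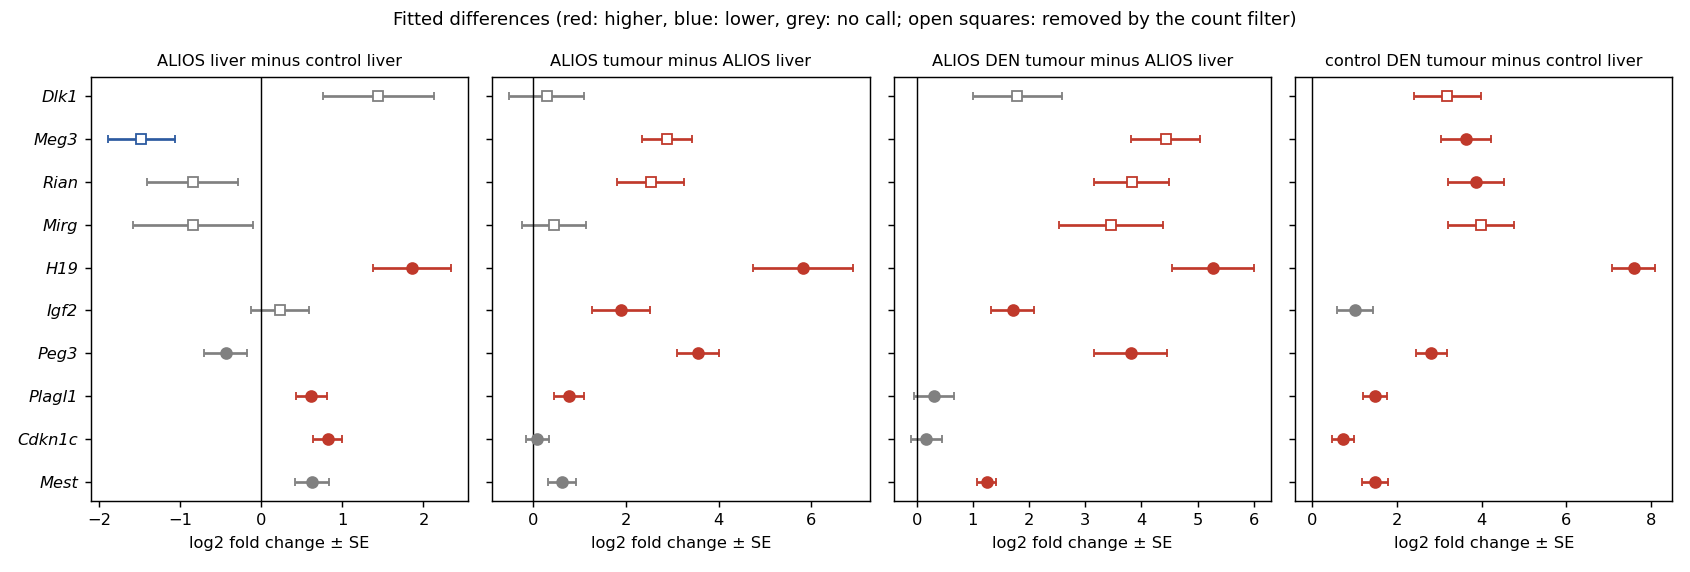
Fitted log2 fold changes (points) with standard errors (bars) for the 10 genes in the 4 comparisons with livers, named above each panel. Filled circles passed the count filter and open squares were fitted without it, with calls higher in red, calls lower in blue and no call in grey. H19 has the largest value in each of the 3 tumour panels, and the Cdkn1c value in ALIOS tumours lies at 0.09.

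The tumours were then compared with livers of the same diet. In ALIOS tumours 4 of the 6 genes that passed the filter were higher (H19, Peg3, Igf2 and Plagl1), in ALIOS DEN tumours 4 of 6 (H19, Peg3, Igf2 and Mest), and in control diet DEN tumours 7 of 8 (H19, Rian, Meg3, Peg3, Mest, Plagl1 and Cdkn1c). No member was called lower in any of these comparisons. Called higher were 26.9% of 14183 genes in the first, 27.7% of 14434 in the second and 27.3% of 14731 in the third comparison, and called lower were 25.9%, 19.8% and 24.4%. The median log2 fold changes of the members that passed were 1.33, 1.48 and 2.15, against 0.01, 0.08 and 0.03 over all genes tested. Meg3 and Rian passed the filter only in the third comparison, so these counts and medians cover unlike sets of members and cannot be ranked. A gene of few reads can pass through the group in which it is high. Fitted without the filter, Meg3 and Rian were called higher in the first 2 comparisons as well. The first 2 comparisons share the ALIOS livers and are therefore not independent of each other.

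H19 was between 1.23 and 701 CPM in the ALIOS tumours, with a median of 13.6, and between 2.93 and 192 CPM in the ALIOS DEN tumours, with a median of 24.3. In the control diet DEN tumours it was 67.7 CPM in T17, 7.42 in T18, 36.5 in T19, 169 in T20 and 41.0 in T21, each above the 12 control diet livers. Against the ALIOS livers, 8 of 12 ALIOS tumours and 7 of 8 ALIOS DEN tumours lay above the highest liver. The log2 fold changes were 5.82 ± 1.07 (n = 12 and 11, adjusted p = 9.74e-05) in ALIOS tumours, 5.28 ± 0.73 (n = 8 and 11, adjusted p = 1.04e-05) in ALIOS DEN tumours and 7.59 ± 0.51 (n = 5 and 12, adjusted p = 4.96e-10) in control diet DEN tumours. The first of these rested in large part on T13, without which it was 3.55 (adjusted p = 4.75e-05), and without T16 the second was 4.46 and without T20 the third was 6.80. All 3 were called in every fit that left out a tumour.

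Igf2, which shares its domain with H19, changed less. It was between 0.190 and 6.28 CPM in ALIOS tumours, with a median of 0.392, against 0.107 to 0.942 CPM in ALIOS livers, with a median of 0.348. The high values came from T2 (168 reads) and T3 (189 reads), while the other 10 ALIOS tumours had 6 to 45 reads. The log2 fold change was 1.90 ± 0.63 (adjusted p = 0.0138), 1.34 without T2 (adjusted p = 0.0448), and 0.91 by limma voom (adjusted p = 0.187), which did not call it. In ALIOS DEN tumours it was 0.519 to 3.18 CPM, with a median of 1.05, and all 8 lay above the liver median (log2 fold change of 1.71 ± 0.39, adjusted p = 0.00127). In control diet DEN tumours it was 0.201 CPM in T17, 0.458 in T18, 0.718 in T19, 0.398 in T20 and 1.28 in T21, and the log2 fold change of 1.02 ± 0.43 did not pass (adjusted p = 0.0538) unless T17 was left out (1.24, adjusted p = 0.0242). The antisense gene Igf2os overlaps Igf2, and the strand option of the counting was not given, so a part of few reads cannot be assigned.

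Peg3 was the only member without overlap in ALIOS tumours. It was between 5.42 and 112 CPM there, with a median of 24.8, and between 1.25 and 4.52 CPM in ALIOS livers, with a median of 3.24, so that each of the 12 tumours lay above each of the 11 livers. Of all genes tested 1.3% showed such a separation in this comparison. The log2 fold change was 3.55 ± 0.46 (adjusted p = 1.52e-06). In ALIOS DEN tumours 7 of 8 lay between 12.2 and 190 CPM and above every liver, whereas T24 held 14 reads (0.260 CPM), below every liver. The log2 fold change was 3.81 ± 0.65 (adjusted p = 9.5e-05), 4.0 without T24 and 2.86 without T16, and limma voom gave 2.46 without a call (adjusted p = 0.0770). In control diet DEN tumours Peg3 was 22.8 CPM in T17, 30.5 in T18, 23 in T19, 60.3 in T20 and 7.17 in T21, all above the control diet livers at 1.31 to 6.96 CPM (log2 fold change of 2.82 ± 0.37, adjusted p = 3.38e-06). H19 and Peg3 were the members with no overlap in this comparison, in which 11.3% of all genes showed none in this direction.

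Meg3 and Rian rose to measurable levels in a part of the tumours. Meg3 was between 0.0329 and 2.85 CPM in ALIOS tumours, with a median of 0.493, and between 0.199 and 8.72 CPM in ALIOS DEN tumours, with a median of 0.964. In control diet DEN tumours it was 1.51 CPM in T17, 0.183 in T18, 1.83 in T19, 11.9 in T20 and 4.79 in T21, and all but T18 lay above the control diet livers. The log2 fold change in the last group was 3.63 ± 0.60 (adjusted p = 4.72e-05), or 2.63 without T20 (adjusted p = 0.000814). Fitted without the filter, Meg3 was higher by 2.90 ± 0.54 in ALIOS tumours (adjusted p = 0.000163) and by 4.43 ± 0.61 in ALIOS DEN tumours (adjusted p = 1.32e-05) on the log2 scale.

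Rian followed the same order of groups. Its medians were 0.202 CPM in ALIOS tumours, 0.526 in ALIOS DEN tumours and 1.01 in control diet DEN tumours, with maxima of 2.73, 4.44 and 4.90 CPM. In control diet DEN tumours T17 had 0.939 CPM, T18 0.0916, T19 1.01, T20 4.90 and T21 4.46, and the log2 fold change was 3.87 ± 0.65 (adjusted p = 6.38e-05). Without the filter the values were 2.53 ± 0.72 in ALIOS tumours (adjusted p = 0.00775) and 3.82 ± 0.66 in ALIOS DEN tumours (adjusted p = 0.00015).

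Mirg and Dlk1 were counted in few tumours. Mirg had at most 1 read in each ALIOS tumour, 0 to 17 reads in ALIOS DEN tumours and, in control diet DEN tumours, 2 reads in T17, 0 in T18, 6 in T19, 25 in T20 and 17 in T21. Without the filter Mirg was called in ALIOS DEN tumours (log2 fold change of 3.45 ± 0.93, adjusted p = 0.00743) and control diet DEN tumours (3.99 ± 0.77, adjusted p = 0.000301) and had 0.45 ± 0.68 in ALIOS tumours (adjusted p = 0.691). Dlk1 had 8 reads in all over the 12 ALIOS tumours, 22 over the 8 ALIOS DEN tumours, of which 14 were in T24, and 10 over the 5 control diet DEN tumours. Fitted without the filter it was called in the control diet DEN tumours alone (3.19 ± 0.79, adjusted p = 0.00303), where the 12 livers held 1 read in all. At these counts the size of a fold change depends on the prior count of the fit, and every group mean of Dlk1 and Mirg was at most 0.293 CPM.

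The 104 rows between Dlk1 and Dio3 held 277 reads over the 23 livers and 3371 over the 26 tumours. Meg3 and Rian gave 1957 and 1121 of the tumour reads, and 22 rows had any read. Dio3, the thyroid hormone inactivating deiodinase at the far end, had 16 reads over the livers and 94 over the tumours, with at most 29 in a library, and Rtl1, the retrotransposon derived gene between Meg3 and Rian, had 0 and 7. Neither passed the filter in any comparison.

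Mest rose in both DEN groups. In ALIOS DEN tumours it was between 3.56 and 9.05 CPM, with a median of 5.78, each above the ALIOS livers at 1.85 to 3.46 CPM (log2 fold change of 1.24 ± 0.17, adjusted p = 1.17e-05). A separation of this kind was seen in 4.18% of all genes tested in this comparison. In control diet DEN tumours it was 6.07 CPM in T17, 2.26 in T18, 3.85 in T19, 3.09 in T20 and 7.25 in T21, against 0.573 to 3.09 CPM in livers (1.49 ± 0.31, adjusted p = 0.000469). In ALIOS tumours it was 1.07 to 12.2 CPM, with a median of 2.88, and the log2 fold change of 0.63 ± 0.30 did not pass (adjusted p = 0.0816) unless T8 or T9 was left out (0.72 and 0.71). Copg2 overlaps the end of Mest on the other strand and was itself measured at 27.8 ± 5.23 CPM in ALIOS tumours and 35.2 ± 1.95 CPM in ALIOS livers (SD), so reads of the shared stretch are uncertain.

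Plagl1, the transcription factor gene, was called in 2 of the 3 tumour comparisons, and Cdkn1c, the cell cycle inhibitor gene, in 1. Plagl1 was 0.469 to 4.87 CPM in ALIOS tumours, with a median of 1.51, and the log2 fold change of 0.77 ± 0.32 (adjusted p = 0.0445) was lost without T5, T10, T11 or T12, and by limma voom (0.56, adjusted p = 0.155). In control diet DEN tumours it was 1.24 CPM in T17, 0.793 in T18, 1.40 in T19, 1.47 in T20 and 3.87 in T21 (1.49 ± 0.28, adjusted p = 0.000189), and in ALIOS DEN tumours its log2 fold change was 0.31 ± 0.36 (adjusted p = 0.505). Cdkn1c was higher in control diet DEN tumours by 0.74 ± 0.26 (adjusted p = 0.0239), a call lost without T19 or T21, with 1.11 CPM in T17, 1.16 in T18, 1.92 in T19, 0.766 in T20 and 1.51 in T21. Its log2 fold change was 0.09 ± 0.25 in ALIOS tumours (adjusted p = 0.797) and 0.17 ± 0.28 in ALIOS DEN tumours (adjusted p = 0.632). Without T24, which held 4.65 CPM, the latter was -0.28 (adjusted p = 0.192).

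The DEN tumours were next set against the spontaneous tumours on the ALIOS diet. None of the 8 members that passed the filter was called, and of 14845 genes 0% were called higher and 0% lower by edgeR. At an unadjusted p under 0.05 there were 1079 genes, and DESeq2 called 75. Among these 8 members Meg3 had the smallest unadjusted p (0.0329), with a log2 fold change of 1.57 ± 0.69 (adjusted p = 0.593). H19 had -0.60 ± 1.05, which became 1.71 without T13. Mirg, fitted without the filter, had 3.05 ± 0.85 (unadjusted p = 0.00159, adjusted p = 0.222), with 4 of 8 DEN tumours above every spontaneous ALIOS tumour. The spontaneous control diet tumour T7, outside this comparison, had 0.290 CPM of Mirg.

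Between the diets in DEN tumours, the same 8 members gave no call, with log2 fold changes from -0.84 ± 0.90 for Rian to 0.95 ± 0.52 for Igf2 (adjusted p = 0.891 and 0.690). Among 14944 genes 0% were called higher and 0.0134% lower in the ALIOS tumours. The difference between the 2 tumour effects, DEN tumour against liver on either diet, was tested in a model over 36 libraries, in which 1.04% of 15606 genes were called higher and 1.23% lower. No member was called. H19 had the largest value, a log2 difference of -2.31 ± 0.94 (unadjusted p = 0.0190, adjusted p = 0.194), and it was called when T16 was left out (-3.12, adjusted p = 0.0416). Plagl1 had -1.18 ± 0.48 (unadjusted p = 0.0202, adjusted p = 0.202). Cdkn1c had -0.55 ± 0.40 (adjusted p = 0.519), and was called when T24 was left out (-1.03, adjusted p = 0.0476).

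**Figure D3:**
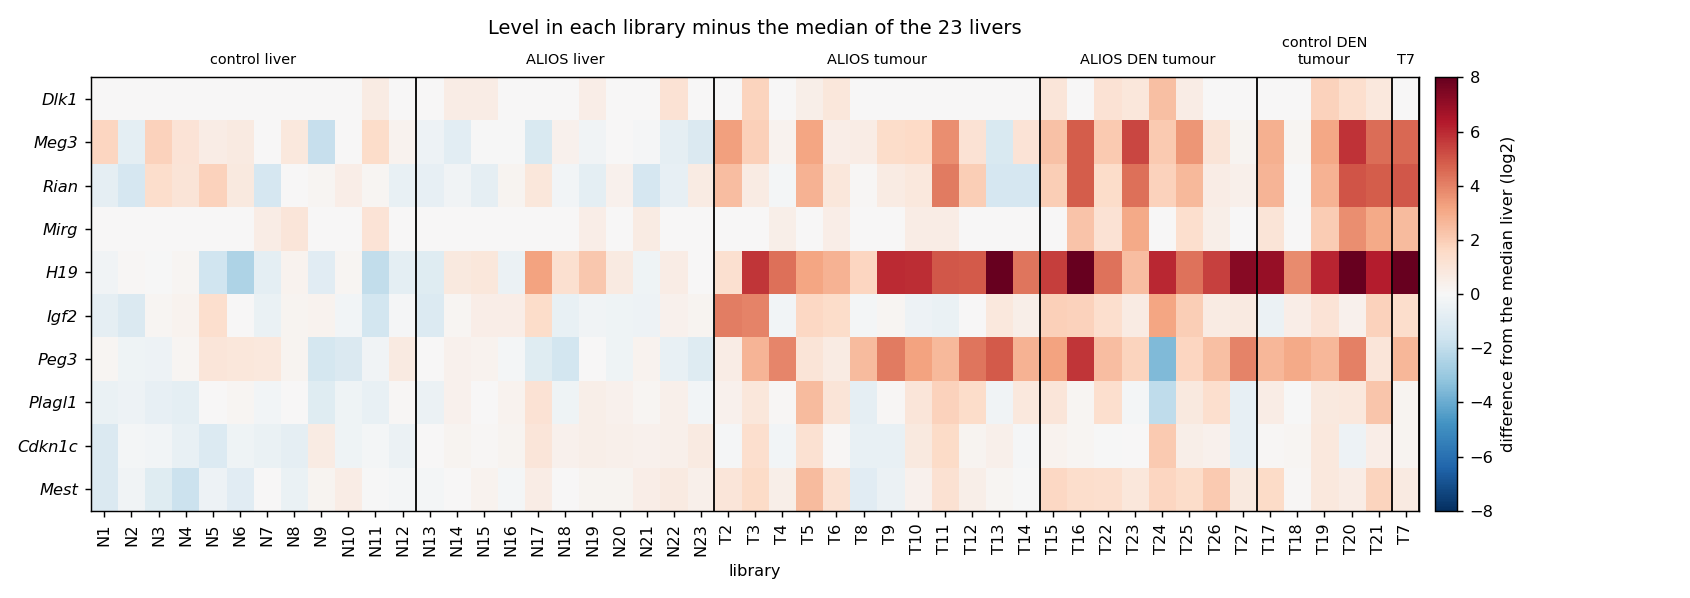
Level of each gene (rows) in each library (columns, by group) minus the median of the 23 livers, on the log2 scale, with colours saturating at 8 in either direction. H19 and Peg3 are red in most tumours, Meg3 and Rian are red in many of the same columns, and T24 has a blue cell for Peg3 and for Plagl1.

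Tumours were heterogeneous in the members they carried. Counting a gene in a tumour when its CPM exceeded that of all 23 livers, Peg3 was counted in 23 of 26 tumours, H19 in 21, Mest in 16, Meg3 in 15, Rian in 14, Igf2 in 9, Mirg in 8, Plagl1 in 6, Dlk1 in 5 and Cdkn1c in 4. The number of members per tumour had a median of 2 in ALIOS tumours (1 to 7, n = 12), 6.5 in ALIOS DEN tumours (3 to 7, n = 8) and 6 in control diet DEN tumours (2 to 8, n = 5), and was 5 in T7. Of the 15646 genes that passed the count filter over the tumours, the share above all 23 livers had medians of 21.7%, 22.9% and 21.2% in the 3 groups, with ranges of 8.67% to 26.2%, 12.4% to 30.3% and 20.8% to 23.4%, and was 16.7% in T7. The difference in members per tumour between the groups was not tested. The ALIOS tumours T3, T5 and T11 carried 7 members, each with Meg3, Peg3, Cdkn1c and Mest. The other 9 ALIOS tumours carried 1 to 4 members, and 6 of them had both H19 and Peg3. T6, which carried neither, had the lowest share of genes above all livers (8.67%). The paper's clustering placed T6 among the non-tumour livers. Whether its sample held non-tumour tissue was not tested.

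The sets of tumours differed by locus. Meg3 and Rian shared 13 tumours, which were 86.7% of the Meg3 and 92.9% of the Rian tumours, and all 8 Mirg tumours and all 5 Dlk1 tumours were among the Meg3 tumours. Dlk1 was counted in T20 and T22, and Mirg in T22 and T25, on 3 reads each against at most 2 in a liver. The sets of Dlk1 and Mirg tumours are therefore uncertain. H19 and Peg3 shared 20 tumours (95.2% of the H19 and 87.0% of the Peg3 tumours). H19 and Igf2, in spite of their common domain, shared 6, which were 28.6% of the H19 and 66.7% of the Igf2 tumours, and 15 tumours had H19 without Igf2. T13, at 701 CPM of H19, had 1 read of Meg3 and 18 of Igf2, and T2, with the highest Igf2, had 33 reads of H19. H19 and Meg3 shared 12 tumours (57.1% of the H19 and 80.0% of the Meg3 tumours). Since H19 and Peg3 were counted in most tumours, much of their overlap with any other member follows from their number.

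**Figure D4:**
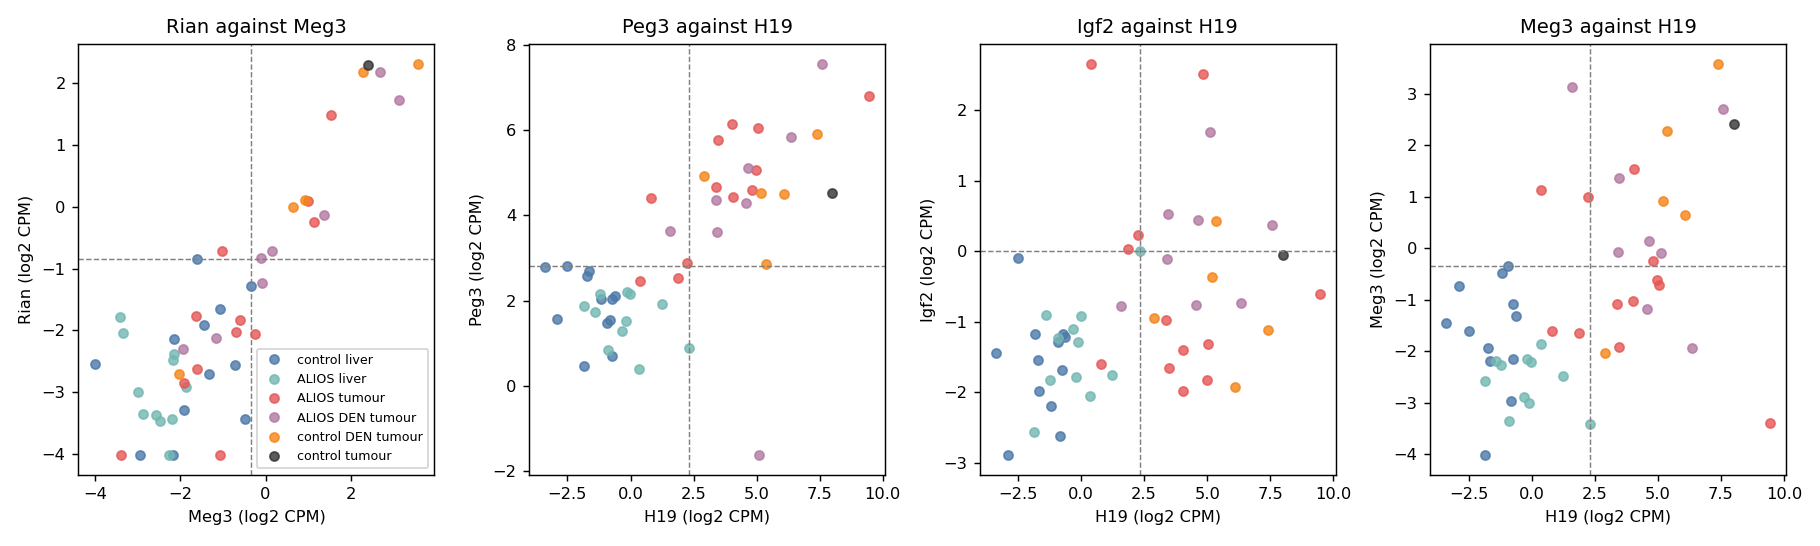
Levels of pairs of members in the same library (log2 CPM), with a point per library coloured by group and dashed lines at the highest of the 23 livers. Rian rises with Meg3, Peg3 is high in most tumours with high H19 except T24 at the bottom, and high Igf2 is seen at low as well as high H19.

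Likeness was measured over the 25 tumours of the 3 replicated groups as Spearman's rho of log2 CPM after subtracting each group's mean, and is given as a description of libraries that share depth and composition. Of 15645 genes ranked against Meg3, Rian was the most alike (rho = 0.89), followed by C1ql4 (0.77) and Cbx8 (0.74), and Rian and C1ql4 were also the first 2 without T24 and by Pearson's correlation. H19 ranked 7651st against Meg3, with rho = 0.01. Against H19 the most alike were Bex1 (0.79), Lpl (0.78) and Pvr (0.77), and Peg3 was the nearest member at rank 75 (0.64), at rank 17 (0.73) without T24 and at rank 766 (0.50) by Pearson's correlation. Of the 3 genes most alike H19, Lpl alone was among the first 3 without T24, and Lpl and Bex1 by Pearson's correlation. Igf2 ranked 10990th against H19 (-0.16). The genes most alike Igf2 were Alas1 (0.77), Asl (0.75) and Pdcd6 (0.74), with Mest the nearest member at rank 1183 (0.45). Alas1 alone was among the first 3 without T24, and Pdcd6 alone by Pearson's correlation. For Dlk1 they were Lrrn3 (0.76), Slc1a2 (0.75) and Cyp2c38 (0.75), of which Lrrn3 alone was among the first 3 without T24 and none by Pearson's correlation. Igf2 was the nearest member to Dlk1 at rank 601 (0.54), and Meg3 ranked 3930th (0.29). Dlk1 had 40 reads over all tumours.

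T24 differed from the other ALIOS DEN tumours in several members. It had the highest Dlk1 (14 reads), Igf2 (3.18 CPM) and Cdkn1c (4.65 CPM) of the group and the lowest Peg3 (0.260 CPM) and Plagl1 (0.149 CPM), with H19 at 34.4 CPM and Meg3 at 0.874 CPM. Its hepatocyte marker sum was the lowest of the group at 91780 CPM and its stellate cell and fibroblast marker sum the highest of all tumours, and their part in these values was not tested. T5, with the highest Plagl1 (4.87 CPM) and Mest (12.2 CPM) of all tumours, had the highest summed level of stellate cell and fibroblast markers (428 CPM) and endothelial markers (309 CPM) among ALIOS tumours. Markers of cell division rose in 6 of 8 cases in ALIOS tumours and in 8 of 8 in each DEN group. Stellate cell and fibroblast markers rose in 2 of 12 cases in ALIOS tumours, 4 in ALIOS DEN tumours and 8 in control diet DEN tumours, and fell in 1, 3 and 1. Their median log2 fold change was 1.36 in control diet DEN tumours, in which 7 of 8 members were called, and 0.27 and 0.32 in the other two groups. Hepatocyte markers rose in 2 of 12 cases in each comparison and fell in 6, 4 and 5, and macrophage markers fell in 6, 1 and 3 of 8 cases and rose in 0, 0 and 1. The part of these markers in the members' changes was not tested.

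The other imprinted genes that were listed did not rise as a group. This list was not divided by whether a gene belongs to the network. Members and list were chosen with earlier results of these data known, so a contrast between them may reflect that choice. Of 50 further imprinted genes listed around the members and elsewhere, 29 passed the filter in ALIOS tumours, of which 6 were higher and 13 lower. In ALIOS DEN tumours 10 of 31 were higher and 9 lower, and in control diet DEN tumours 9 of 32 were higher and 13 lower. Their median log2 fold changes were -0.10, 0.02 and -0.11. These 50 genes gave no call in the comparisons between tumour groups, and in ALIOS livers 2 of 28 were higher and 1 lower.

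Among the imprinted genes elsewhere, Airn, the non-coding RNA antisense to the Igf2 receptor gene, was higher in all 3 tumour groups, at 5.33 ± 2.47 CPM (SD, n = 12) in ALIOS tumours against 0.624 ± 0.284 CPM in ALIOS livers (log2 fold change of 3.04 ± 0.32, adjusted p = 1.95e-07). Igf2r was higher in the 3 groups as well, by 0.68 ± 0.17 (adjusted p = 0.00175), 1.20 ± 0.18 (adjusted p = 2.2e-05) and 0.98 ± 0.12 (adjusted p = 1.07e-06) on the log2 scale, and since the 2 overlap on opposite strands their reads cannot be told apart with the strand option unknown. Grb10, which encodes an adaptor that dampens insulin signalling, was higher by 2.39 ± 0.44 in ALIOS tumours (adjusted p = 8.72e-05), 2.61 ± 0.37 in ALIOS DEN tumours (adjusted p = 1.4e-05) and 1.84 ± 0.25 in control diet DEN tumours (adjusted p = 4.48e-06). Peg10 was called in the 2 DEN groups, by 2.26 ± 0.42 (adjusted p = 0.000215) and 3.79 ± 0.46 (adjusted p = 1.36e-06), and did not pass the filter in ALIOS tumours. Slc38a4, an amino acid transporter gene strongly transcribed in liver, was lower in the 3 groups, with log2 fold changes of -0.96, -1.18 and -1.15, and Snrpn had -0.85, -0.63 and -0.68.

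Within reach of H19, Igf2 and Cdkn1c on distal chromosome 7, 1 of 7 genes was higher and 3 lower in ALIOS tumours, 3 of 7 higher and 2 lower in ALIOS DEN tumours, and 2 of 8 higher and 2 lower in control diet DEN tumours. Kcnq1ot1, the non-coding RNA of the Cdkn1c domain, was higher in ALIOS tumours (0.83 ± 0.18, adjusted p = 0.000636) and ALIOS DEN tumours (0.77 ± 0.20, adjusted p = 0.00441) and had 0.25 ± 0.32 in control diet DEN tumours (adjusted p = 0.528). Phlda2, a growth restraining gene of the placenta, rose from 0.0596 ± 0.0325 CPM in control diet livers to 1.06 ± 0.655 CPM in control diet DEN tumours (4.11 ± 0.34, adjusted p = 1.07e-08), and did not pass the filter in the ALIOS comparisons. Osbpl5 fell by 1.23, 1.54 and 0.80 and Slc22a18 by 0.55, 0.39 and 0.32 on the log2 scale. Of the neighbours of Peg3, Mest and Plagl1, Zfp264 and Hymai had no row and Usp29, Zim1 and Klf14 did not pass the filter, with at most 0.0401 CPM in the mean of any group. Copg2 was lower in ALIOS tumours (-0.37 ± 0.09, adjusted p = 0.00122) and ALIOS DEN tumours (-0.33 ± 0.08, adjusted p = 0.00211).

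**Figure D5:**
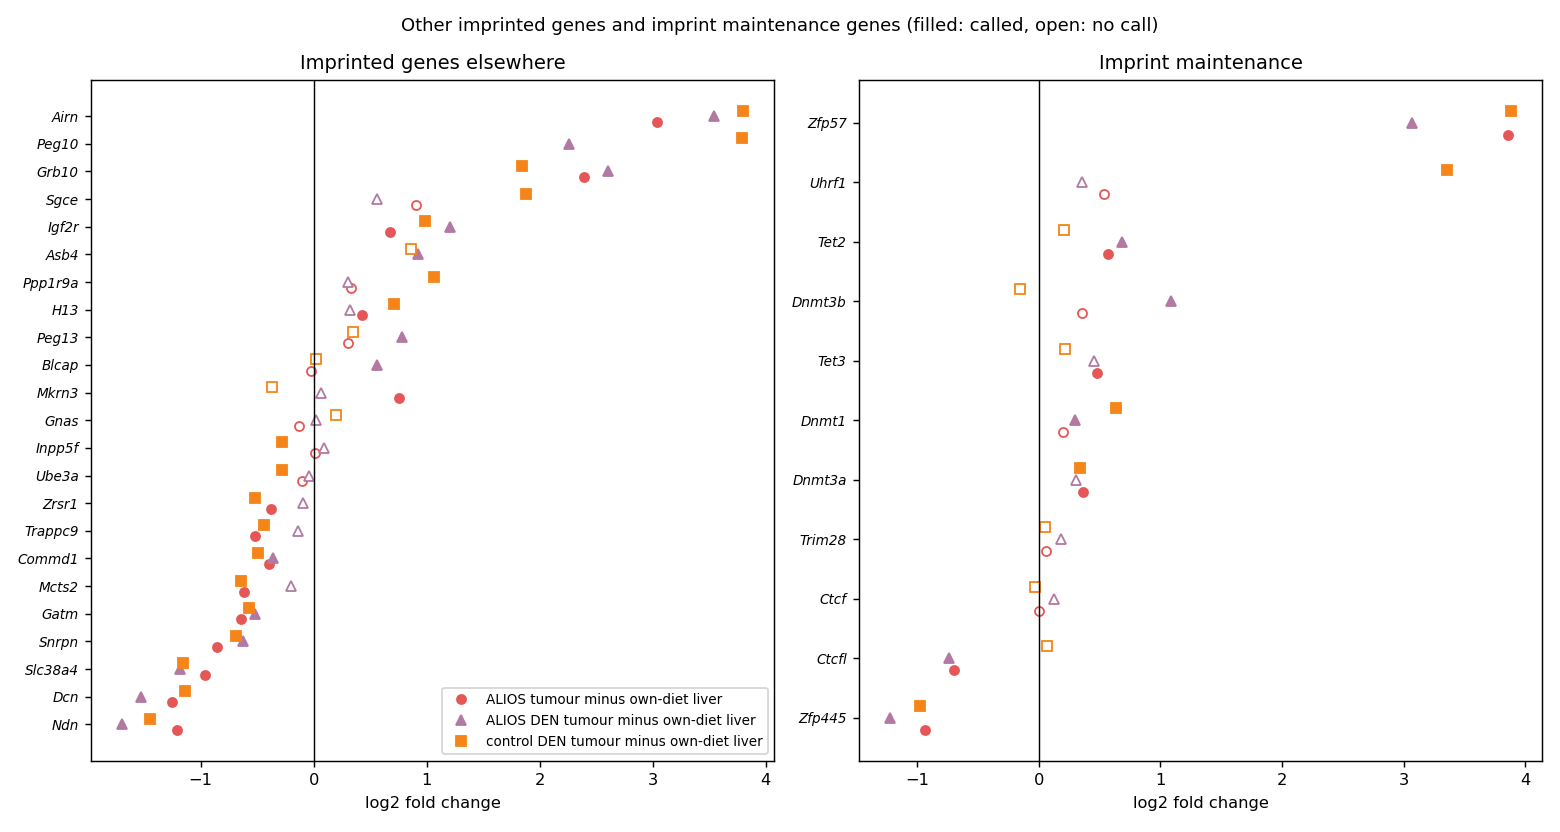
Log2 fold change of tumours against livers of the same diet for imprinted genes elsewhere (left) and imprint maintenance genes (right) that passed the filter, with a symbol for each tumour group, filled where called. Airn and Zfp57 lie above 3 in each group, and Snrpn and Slc38a4 lie to the left of 0.

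Of 14 genes that set or keep imprints, 11 passed the filter, of which 4 were higher and 2 lower in ALIOS tumours, 4 higher and 2 lower in ALIOS DEN tumours, and 4 higher and 1 lower in control diet DEN tumours. Zfp57, whose protein binds methylated imprint control regions, was higher in each, at 15.7 ± 11 CPM in ALIOS tumours, 8.82 ± 4.63 CPM in ALIOS DEN tumours and 13.9 ± 5.26 CPM in control diet DEN tumours, against 1.06 ± 0.291 and 0.954 ± 0.307 CPM in ALIOS and control diet livers (SD). The log2 fold changes were 3.86 ± 0.40 (adjusted p = 1.45e-07), 3.07 ± 0.29 (adjusted p = 1.54e-07) and 3.88 ± 0.24 (adjusted p = 1.32e-10). Zfp445, a zinc finger gene with a like role, was lower, with log2 fold changes of -0.93, -1.22 and -0.98. Uhrf1, which recruits the maintenance methyltransferase, was higher in control diet DEN tumours (3.36 ± 0.29, adjusted p = 2.07e-08) and in ALIOS livers against control diet livers (2.49 ± 0.51, adjusted p = 0.00570).

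The receptors of IGF2 changed little beside Igf2r, the receptor that clears the factor. Insr was higher in ALIOS tumours (0.36 ± 0.12, adjusted p = 0.0108) and control diet DEN tumours (0.62 ± 0.11, adjusted p = 9.89e-05), and had 0.37 ± 0.19 in ALIOS DEN tumours (adjusted p = 0.114). Igf1r, the signalling receptor, was between 0.564 and 0.891 CPM in the group means and had no call in the comparisons with livers (log2 fold changes from 0.09 to 0.65). Igf2bp2, which encodes an RNA binder of Igf2 transcripts, was lower in control diet DEN tumours (-1.06 ± 0.32, adjusted p = 0.00976), and Igf2bp1 and Igf2bp3 did not pass the filter against the livers.

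The fetal liver genes Afp and Gpc3 had larger fitted log2 fold changes than every member in each tumour comparison. Afp was 0.828 ± 0.272 CPM in ALIOS livers and 248 ± 147 CPM in ALIOS tumours (SD), with a log2 fold change of 8.18 ± 0.67 (adjusted p = 3.03e-08), and 9.59 ± 0.67 and 8.64 ± 0.40 in the DEN tumours on the ALIOS and control diets. Gpc3 rose by 7.61 ± 0.70, 8.91 ± 0.65 and 8.36 ± 0.48. Zhx2 and Zbtb20, repressors of Afp after birth, were lower in ALIOS tumours (-0.29 ± 0.10 and -0.36 ± 0.13, adjusted p = 0.0210 and 0.0209) and ALIOS DEN tumours (-0.30 ± 0.12 and -0.56 ± 0.17), and gave no call in control diet DEN tumours (-0.09 ± 0.10 and -0.15 ± 0.21).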

How the data were processed

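The authors prepared stranded mRNA libraries with 100 bp paired reads, aligned them by STAR (2-pass) against mm10, and took reads per gene over Gencode M6 exons by HTSeq (intersection-nonempty); versions and the strand option are not given in the sources used here. The table they deposited holds unnormalised counts of reads per gene. Symbols missing from the table (H19, Rian), exon lengths and coordinates came from Gencode M21 (GRCm38).

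Counts were fitted with edgeR 4.0.16 in R 4.3.3 (filterByExpr with a minimum count of 10 on the groups compared, TMM, quasi-likelihood test, Benjamini-Hochberg adjusted p under 0.05 over all genes tested), without covariates. Standard errors were derived from the fold change and its F statistic. The scripts were tested on simulated data. Alternatives were DESeq2 1.42.0, limma voom 3.58.1, RLE scaling, no count filter, all 48 libraries in 1 fit, plain totals, 94 fits without 1 library and a replicate block. T1 (kidney transcripts) entered no comparison and T7, alone in its group, no test. Members were named in every comparison. From longer lists the 3 called genes with the smallest p in each direction were named at most, and lists of up to 6 genes in full. Members and lists were chosen with earlier results of these data known. The labels do not say that samples came from separate mice. The paper counts 1 mouse for each spontaneous tumour and treats the non-tumour livers as separate cases. The DEN tumours are not described there. The p-values measure only the spread between these samples, which for the DEN tumours may be technical.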

Additional observations from a re-analysis of the deposited data

Results flagged for a closer look

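T24, an ALIOS DEN tumour, lay apart from the other 7 tumours of its group for 2 of the 10 members. Peg3 was at -1.63 log2 CPM against 3.62 to 7.57 in the others, and Cdkn1c was at 2.24 log2 CPM against -0.54 to 0.62. They were found by Dixon's test in 20 searches (10 genes in the 2 groups with 8 and 5 tumours), where chance alone flags about 1. The part of its high stellate cell and fibroblast marker sum was not tested.

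T7, the only spontaneous tumour on the control diet, entered no test. In it 8 members were above the highest of the 12 control diet livers, namely H19 at 257 CPM (exact 95% binomial interval 252 to 263, livers up to 0.584), Peg3 at 22.9 CPM (21.4 to 24.6, livers up to 6.96), Meg3 at 5.24 CPM (4.51 to 6.07, livers up to 0.727), Rian at 4.84 CPM (4.13 to 5.63, livers up to 0.495), Mest at 3.42 CPM (2.83 to 4.09, livers up to 3.09), Plagl1 at 0.956 CPM (0.658 to 1.34, livers up to 0.914), Igf2 at 0.898 CPM (0.610 to 1.28, livers up to 0.875) and Mirg at 0.290 CPM (0.139 to 0.533, livers up to 0.0724). The liver maxima for Mest, Plagl1 and Igf2 lie within the intervals. Cdkn1c was at 1.19 CPM, and Dlk1 had 0 reads, which allows up to 0.0869 CPM. Intervals cover counting error only. The share of all genes in T7 above these 12 livers was not computed, so the count of 8 members has no background. Above all 23 livers T7 had 5 members, beside 16.7% of the 15646 genes that passed the count filter over the tumours.

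T1, the library with kidney transcripts, held 3 members above the highest of the 11 ALIOS livers, Peg3 at 14.9 CPM (13.8 to 16, livers up to 4.52), Cdkn1c at 9.94 CPM (9.05 to 10.9, livers up to 2.05) and Plagl1 at 2.87 CPM (2.40 to 3.40, livers up to 1.82). Its H19 was 2 reads. The share of all genes in T1 above these livers was not computed, so the count of members has no background.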

How the results depend on the processing

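The diet comparison in liver called 1542 genes and 3 members, with a single fit of all groups calling 602 genes and 0 members and fits without 1 library 949 to 2343 genes. In ALIOS tumours voom called 2 members and the single fit 7, against 4. In ALIOS DEN tumours the fit without a count filter called 7 members, against 4. DEN against spontaneous tumours gave 0 called genes, with 75 by DESeq2, 268 in the single fit and 0 to 15 without 1 library. Diet in DEN tumours gave 2, with 155 by DESeq2, 1 without the count filter, 228 in the single fit and 0 to 19 without 1 library. The difference of tumour effects between diets gave 354, with 657 by DESeq2, 224 by voom and 174 to 732 without 1 library.

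Directions that turned belonged to values without a call, in log2. By voom these were Cdkn1c -0.072 in ALIOS tumours, Plagl1 -0.10 in ALIOS DEN tumours, H19 0.86, Igf2 0.68 and Peg3 -0.67 for DEN against spontaneous tumours (H19 0.82 by DESeq2), Peg3 -0.56 for diet in DEN tumours and Peg3 -0.17 for the difference between diets, where Rian was 0.015 by DESeq2 and 0.00097 in the single fit. Without 1 library, Cdkn1c ranged from -0.062 to 0.17 in ALIOS tumours and from -0.28 to 0.29 in ALIOS DEN tumours. For DEN against spontaneous tumours H19 ranged from -1.39 to 1.71, Igf2 from -0.62 to 0.33, Peg3 from -0.72 to 0.49 and Cdkn1c from -0.42 to 0.19. For diet in DEN tumours Meg3 ranged from -1.23 to 0.33, H19 from -1.26 to 0.31, Peg3 from -0.37 to 1.04 and Cdkn1c from -0.19 to 0.46, and for the difference between diets Rian from -0.62 to 0.49. The causes were not tested. Calls of single members were also lost without the count filter for Plagl1 in ALIOS livers (adjusted p = 0.0622) and ALIOS tumours (adjusted p = 0.0552), and in the single fit for Cdkn1c in control diet DEN tumours (adjusted p = 0.0737). Mest gained a call in ALIOS livers by DESeq2 (adjusted p = 0.0270) and voom (adjusted p = 0.0213) and in ALIOS tumours in the single fit (adjusted p = 0.0460).

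The replicate numbers run through all samples and are shared by few, so they were not used as pairs in the main fits. Libraries with the same number had correlations of deviations from -0.20 to 0.06. These cannot show whether a tumour and a liver shared a mouse, since a tumour need not deviate as its liver does. With the number as a block, over those few libraries, 379 genes and 0 members were called in ALIOS tumours. In ALIOS DEN tumours the block fit called 1664 genes. Igf2 (adjusted p = 0.0724) and Mest (adjusted p = 0.0617) lost their calls there, and Cdkn1c was at -0.29. RLE scaling changed none of 49 results. Dlk1 and Mirg are limited by depth.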
